A study of Mus musculus with 12 samples.

Results

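App, Ece2, Gsk3b and Capn1 are 4 of the 35129 gene entries in the deposited count table. They were chosen by name, as the amyloid precursor, a peptidase that acts on amyloid, and a kinase and a protease of the Alzheimer pathway that the study discusses, and not for their values. RNA was sequenced from fluorescent cortical neurons aspirated by hand from male mice of 5 to 7 weeks. Sst-neurons came from GIN mice on the FVB background, in which a Gad-driven transgene gives enhanced green fluorescent protein in a subset of somatostatin (Sst) interneurons. Thy1-neurons came from YFPH mice on the B6 background, whose Thy1-driven transgene marks pyramidal neurons of layer V with yellow fluorescent protein. Neuron type and mouse line therefore cannot be told apart in these data. A subcutaneous mini pump gave nicotine hydrogen tartrate at 48 mg/kg/d (Sst+Nic, Thy1+Nic) or saline (Sst, Thy1) for 14 days. The design held 3 mice and 3 libraries per group, and 10 of the 12 libraries were used. Each library is taken here to hold cells of 1 mouse, which the study does not state outright. Sst and Thy1+Nic had 3 libraries each, while Sst+Nic and Thy1 had replicates 2 and 3, with their replicate 1 not analysed here.

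Total deposited counts ranged from 2915738 to 4878326 per library. Of these, 3 counts, the most that an undetected gene may hide, come to 0.615 to 1.03 CPM (counts per 1e6 deposited counts of the library). Most nuclear entries of the table hold only a small share of what the study's own group values require. The exceptions were set by position, as 904 entries, called position-checked here, which lie on stretches of 4 chromosomes or are mitochondrially encoded. On chromosomes 16, 19, 8 and 7, 43, 12, 9 and 2 genes were compared with the study's values. The other entries of these stretches were accepted by position alone, so that full counts are not shown for each of them. App, Ece2, Gsk3b and Capn1 are all among the 904 entries. The Sst gene, which checks the labels, ranged from 53779 to 126088 CPM in the 5 Sst-neuron libraries. In Thy1-neurons it was at 1.15 to 49.2 CPM in 4 libraries and at 3795 CPM in Thy1 replicate 3. Cell type markers, 31 genes in 7 lists, had 2 genes that were position-checked, Sst itself and Cldn5, a tight junction gene of endothelial cells. Cldn5 was at 35.7 CPM in Sst replicate 2, at 13.1 in Sst+Nic replicate 3, at 12.1 in Thy1+Nic replicate 1 and at 7.36 in Thy1+Nic replicate 3, and at 0 counts in the other 6 libraries. The mitochondrially encoded genes took 16.3% to 22.1% of the deposited counts of Sst-neurons and 31.4% to 38.5% of those of Thy1-neurons. These shares and all CPM values refer to the deposited totals, in which most nuclear entries are incomplete, and not to all reads of a library.

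App encodes the amyloid precursor protein, a membrane protein of neurons that secretases cut into fragments, among them the amyloid beta peptide. Ece2 encodes endothelin-converting enzyme 2, a metallopeptidase that can degrade amyloid beta and processes neuropeptides. Gsk3b encodes glycogen synthase kinase 3 beta, which phosphorylates tau and many other proteins. Capn1 encodes the large subunit of calpain 1, a calcium-activated protease that cuts cytoskeletal proteins and the activators of cyclin-dependent kinase 5.

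The genes lie on position-checked stretches of chromosomes 16 and 19 (GRCm38, RefSeq annotation). App spans 84952666 to 85175255 of chromosome 16 on the minus strand. Ece2 (20629851 to 20645915) and Gsk3b (38089001 to 38246084) lie on the plus strand of the same chromosome. Capn1 spans 5988545 to 6015825 of chromosome 19 on the minus strand. In the basic GENCODE M21 annotation, 87.05% of the exon bases of Ece2 are shared on the same strand with Gm49333, a read-through gene with no entry in the table, so that counts of the 2 genes cannot be separated. Antisense genes cover 9.714% of the exon bases of Capn1 (Gm10814) and 1.384% of those of App (Gm49227). The counts were not stated to use strand, so reads of these overlaps cannot be assigned to 1 gene.

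Ece2 and Capn1 are the members whose levels stood furthest apart between the neuron types, in opposite directions. The 250 bases before their RefSeq start sites (GRCm38.p6, 5′ to 3′ on the strand of the gene) are shown with the GC box GGGCGG, or its reverse complement, in capitals. The window of Ece2 is chr16:20629601-20629850 (plus strand) and that of Capn1 is chr19:6015826-6016075 (minus strand). Capn1 has a second RefSeq start, with a window at chr19:6015248-6015497 that is not shown (60.8% G and C, 1 GC box and 1 CCAAT box), and the window shown is that of the gene's outermost start.
Ece2: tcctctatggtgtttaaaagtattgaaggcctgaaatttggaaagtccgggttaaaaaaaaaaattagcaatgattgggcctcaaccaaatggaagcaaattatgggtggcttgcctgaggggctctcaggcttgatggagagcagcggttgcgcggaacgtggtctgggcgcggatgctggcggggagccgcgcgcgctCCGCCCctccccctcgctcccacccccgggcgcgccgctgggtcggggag
Capn1: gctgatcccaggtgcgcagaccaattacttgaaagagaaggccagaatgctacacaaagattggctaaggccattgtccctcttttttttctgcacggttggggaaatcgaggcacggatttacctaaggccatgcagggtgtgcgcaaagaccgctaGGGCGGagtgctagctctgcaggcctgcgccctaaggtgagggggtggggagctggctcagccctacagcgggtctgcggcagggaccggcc
Each window holds 1 GC box, and 32.74% of the 32851 promoter windows of the same length hold at least 1 (either strand). The window of Ece2 has 59.2% G and C, 19 CG dinucleotides and 1 CCAAT box, and that of Capn1 has 58.8%, 11 and 2. The median over all windows was 52.4% G and C, and 33.85% held a CCAAT box. The window of App holds 1 GC box and no CCAAT box (70.8% G and C), and that of Gsk3b holds 3 CCAAT boxes, no GC box and 1 TATAAA (62.0% G and C, with TATAAA in 12.37% of windows). The App window, chr16:85173708-85173957 (minus strand), lies inside the gene's span, which ends at 85175255, and thus not before its outermost start. No match was found for TATAAA in the windows of Ece2, Capn1 and App. These are matches of letters and were not tested against the levels.

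Ece2 was higher in every Sst-neuron library than in any Thy1-neuron library. Its level was 48.5, 94.1 and 92.0 CPM in Sst replicates 1, 2 and 3, and 88.5 and 50.8 CPM in Sst+Nic replicates 2 and 3. It was 13.5 and 10.98 CPM in Thy1 replicates 2 and 3, and 12.4, 18.4 and 8.54 CPM in Thy1+Nic replicates 1, 2 and 3. The lowest Sst-neuron library, Sst replicate 1, thus stood above the highest Thy1-neuron library, Thy1+Nic replicate 2. The group means were 78.2 ± 25.8 CPM in Sst (SD, n = 3), 69.7 ± 26.6 in Sst+Nic (n = 2), 12.2 ± 1.75 in Thy1 (n = 2) and 13.1 ± 4.99 in Thy1+Nic (n = 3). Counting error was small beside these gaps in Sst-neurons (195 to 369 counts) and wider in Thy1-neurons (29 to 78 counts), where the 95% Wilson interval of the lowest library ran from 5.95 to 12.3 CPM and that of the highest from 14.8 to 23.0 CPM. Such intervals cover counting error only. In Thy1 replicate 3, the Thy1-neuron library with the most Sst RNA, Ece2 was at 10.98 CPM, the second lowest of the 10 libraries. Each library pools cells, so that fewer cells with a transcript and less of it per cell cannot be told apart.

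The cell type comparison over both treatments asks whether a gene differs between Sst- and Thy1-neurons with treatment as a term, and used all 10 libraries. A gene counted as called if it had both a log2 fold change beyond 1 in size and a p-value under 0.05 after Benjamini-Hochberg adjustment over all entries tested. Of the 4 genes, 1 was called, where 4.62% of all 8242 entries tested were called (1.95% higher in Sst-neurons and 2.67% lower). In a fit on the position-checked entries alone, where the 4 genes lie, 63 of 549 entries (11.5%) were called, and Ece2 was again the member called. Ece2 was 4.55-fold higher in Sst-neurons (log2 fold change 2.19, SE 0.435, edgeR quasi-likelihood test, adjusted p = 0.0105). It was called in each of 11 alternative fits of this comparison (adjusted p at most 0.0196) and in each of the 10 fits that left out 1 library (log2 fold change 2.02 to 2.40, adjusted p at most 0.0335). With counts scaled by the trimmed mean of M-values (TMM CPM), 8.17% of all entries had libraries of the 2 neuron types that did not overlap, 3.62% with Sst-neurons higher. Shares without overlap were taken over all entries tested and not over position-checked entries alone, of which a larger share was called. Ece2 had no overlap on this scale (41.3 to 99.7 against 8.97 to 23.3) nor in CPM.

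Within each treatment Ece2 pointed the same way but did not pass the test. In saline-treated mice it was 5.85-fold higher in Sst than in Thy1 (log2 fold change 2.55, SE 0.583, edgeR adjusted p = 0.0940), with 1.72% of 6350 entries called (6.57% of 502 in the fit on position-checked entries). It passed in 3 of 12 alternatives, with adjusted p = 0.00162 by DESeq2, 0.00715 with no filter on low counts and 0.0449 where an entry needed 10 counts in 1 library. In nicotine-treated mice it was 3.56-fold higher in Sst+Nic than in Thy1+Nic (log2 fold change 1.83, SE 0.620, edgeR adjusted p = 0.230), with 0.507% of 6509 entries called (3.31% of 514 in the fit on position-checked entries), and it passed in none of the 12 alternatives (adjusted p 0.0974 to 0.613). The 3 comparisons share libraries. The difference between the treatments in the cell type contrast did not pass the test (interaction, log2 -0.72, SE 0.835, edgeR adjusted p = 0.923).

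Capn1 had the reverse order, and in Sst-neurons it was the least abundant of the 4 genes. Its level was 1.99, 11.5 and 3.51 CPM in Sst replicates 1, 2 and 3, and 4.12 and 7.38 CPM in Sst+Nic replicates 2 and 3. It was 25.2 and 10.98 CPM in Thy1 replicates 2 and 3, and 24.8, 17.3 and 23.9 CPM in Thy1+Nic replicates 1, 2 and 3. All but 1 of the Sst-neuron libraries stood below all Thy1-neuron libraries, and Sst replicate 2 stood slightly above Thy1 replicate 3. In TMM CPM the neuron types did not overlap, by a narrow margin (at most 12.2 in Sst-neurons and at least 12.4 in Thy1-neurons), where 4.55% of entries had no overlap with Sst-neurons lower. The values rest on 8 to 45 counts for Sst-neurons and 40 to 88 for Thy1-neurons. In Sst replicate 1 the 8 counts give a 95% Wilson interval of 1.01 to 3.93 CPM.

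Over both treatments Capn1 was 4.14-fold lower in Sst-neurons (log2 fold change -2.05, SE 0.718), which did not pass the test (edgeR adjusted p = 0.131). Of 11 alternatives, DESeq2 called it (log2 fold change -2.05, adjusted p = 0.0222), and the others gave adjusted p up to 0.243. Sst replicate 2 and Thy1 replicate 3, the libraries that met in the middle, also stood apart in the markers, with the highest Cldn5 of all libraries in the first and the highest Sst of the Thy1-neurons in the second. Without Sst replicate 2 the log2 fold change was -2.63 (edgeR adjusted p = 0.0531), and without Thy1 replicate 3 it was -2.29 (edgeR adjusted p = 0.203). The part of these markers in the result was not tested. Within treatments Capn1 had log2 fold changes of -1.72 (SE 1.18, saline) and -2.37 (SE 0.867, nicotine), with edgeR adjusted p of 0.573 and 0.248. The saline value was -2.94 without Sst replicate 2 and -1.15 without Thy1 replicate 2.

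**Figure D1:**
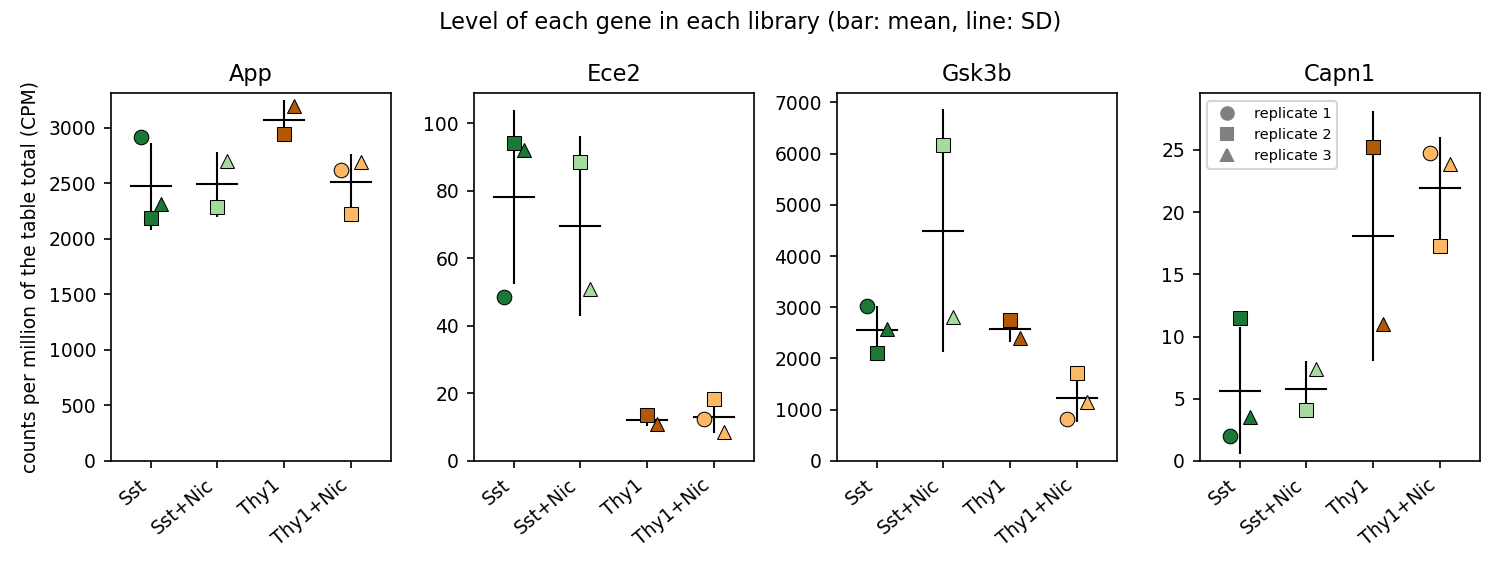
Level of App, Ece2, Gsk3b and Capn1 in each of the 10 libraries, as CPM (counts scaled to the table's total; linear axes from 0), by group (x axis), with symbols for the replicate, horizontal bars for group means and vertical lines for 1 SD either side. Ece2 sits between 48.5 and 94.1 CPM in Sst-neurons and between 8.54 and 18.4 in Thy1-neurons, Capn1 is lower in Sst-neurons apart from Sst replicate 2, and Gsk3b is lowest in the 3 Thy1+Nic libraries.

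Ece2 and Capn1 can also be set against each other within a library, where the total cancels. There were 24.4, 8.20 and 26.2 counts of Ece2 for each count of Capn1 in Sst replicates 1, 2 and 3, and 21.5 and 6.89 in Sst+Nic replicates 2 and 3. The ratio was 0.534 and 1.00 in Thy1 replicates 2 and 3, and 0.50, 1.07 and 0.358 in Thy1+Nic replicates 1, 2 and 3. The 2 groups of libraries did not overlap, and the ratio is a description of the same counts, not a further test. Per kilobase of exon, Ece2 was at 22.2 ± 6.84 CPM for Sst-neurons and 3.79 ± 1.09 for Thy1-neurons (SD, n = 5 each), and Capn1 at 1.81 ± 1.20 and 6.48 ± 1.96. On this length-adjusted scale Ece2 was the more abundant of the pair in Sst-neurons and Capn1 in Thy1-neurons.

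App was abundant, and in CPM its level was nearly even across the groups. Its level was 2920, 2186 and 2312 CPM in Sst replicates 1, 2 and 3, and 2284 and 2700 CPM in Sst+Nic replicates 2 and 3. It was 2945 and 3199 CPM in Thy1 replicates 2 and 3, and 2617, 2222 and 2693 CPM in Thy1+Nic replicates 1, 2 and 3. The highest library of each neuron type exceeded the lowest by 1.34-fold (Sst-neurons) and 1.44-fold (Thy1-neurons), and the neuron types overlapped in CPM. In order of group means, Thy1 (3072 ± 180 CPM, SD, n = 2) was followed by Thy1+Nic (2511 ± 253, n = 3), Sst+Nic (2492 ± 294, n = 2) and Sst (2473 ± 393, n = 3), and the last 3 overlapped one another. Its counts, 6660 to 13170 per library, give 95% Wilson intervals of at most 2.40% either side, for counting error only.

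Over both treatments App was 1.41-fold lower in Sst-neurons in the TMM-normalized fit (log2 fold change -0.50, SE 0.164, edgeR adjusted p = 0.110). This size depends on the scaling, because TMM factors were 0.944 to 1.35 for the Sst-neuron libraries and 0.791 to 0.997 for the others. With the totals as library sizes the log2 fold change was -0.16 (edgeR adjusted p = 0.623). In TMM CPM the neuron types did not overlap (1696 to 2485 in Sst-neurons, 2810 to 3605 in Thy1-neurons), whereas in CPM they did. Of all entries, 8.17% had no overlap in TMM CPM, 4.55% with Sst-neurons lower. DESeq2 and limma voom with quality weights gave adjusted p of 0.0111 and 0.0144, with log2 fold changes of -0.50 and -0.51, short of the fold-change threshold. Within treatments the log2 fold change was -0.50 (saline, SE 0.183, edgeR adjusted p = 0.242) and -0.49 (nicotine, SE 0.274, edgeR adjusted p = 0.479). With the totals as library sizes these values were -0.31 (saline) and -0.01 (nicotine). The nicotine value was -0.28 without Sst+Nic replicate 2 and -0.79 without Sst+Nic replicate 3.

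Gsk3b was close to App in level in the Sst group and was lowest in the Thy1+Nic libraries. Its level was 3019, 2098 and 2573 CPM in Sst replicates 1, 2 and 3, and 6173 and 2814 CPM in Sst+Nic replicates 2 and 3. It was 2747 and 2395 CPM in Thy1 replicates 2 and 3, and 809, 1716 and 1142 CPM in Thy1+Nic replicates 1, 2 and 3. All Thy1+Nic libraries stood below all others, as they did for 1.07% of all entries in TMM CPM, and Sst+Nic replicate 2 stood far above the rest. In TMM CPM the margin was narrow, with Thy1+Nic replicate 2 at 2169 and Sst replicate 2 at 2222. The group means were 4494 ± 2375 CPM in Sst+Nic (SD, n = 2), 2571 ± 249 in Thy1 (n = 2), 2563 ± 460 in Sst (n = 3) and 1222 ± 459 in Thy1+Nic (n = 3). In CPM the Sst libraries overlapped those of Thy1 and those of Sst+Nic. Per kilobase of exon, Gsk3b was at 307 ± 55.2 CPM in Sst, 539 ± 285 in Sst+Nic, 308 ± 29.9 in Thy1 and 147 ± 55.0 in Thy1+Nic, beside 303 ± 48.1, 305 ± 36.0, 376 ± 22.0 and 307 ± 30.9 for App.

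The ratio of Gsk3b to App counts within a library, which no scaling changes, was 1.03, 0.960 and 1.11 in Sst replicates 1, 2 and 3. It was 2.70 and 1.04 in Sst+Nic replicates 2 and 3, and 0.933 and 0.749 in Thy1 replicates 2 and 3. In Thy1+Nic replicates 1, 2 and 3 it was 0.309, 0.772 and 0.424. The Thy1+Nic values reached from the lowest ratio of all to 1 value inside the range of Thy1. The lowest Sst-neuron ratio (0.960) and the highest Thy1-neuron ratio (0.933) lay close together, and the ratio is a description of the same counts.

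**Figure D2:**
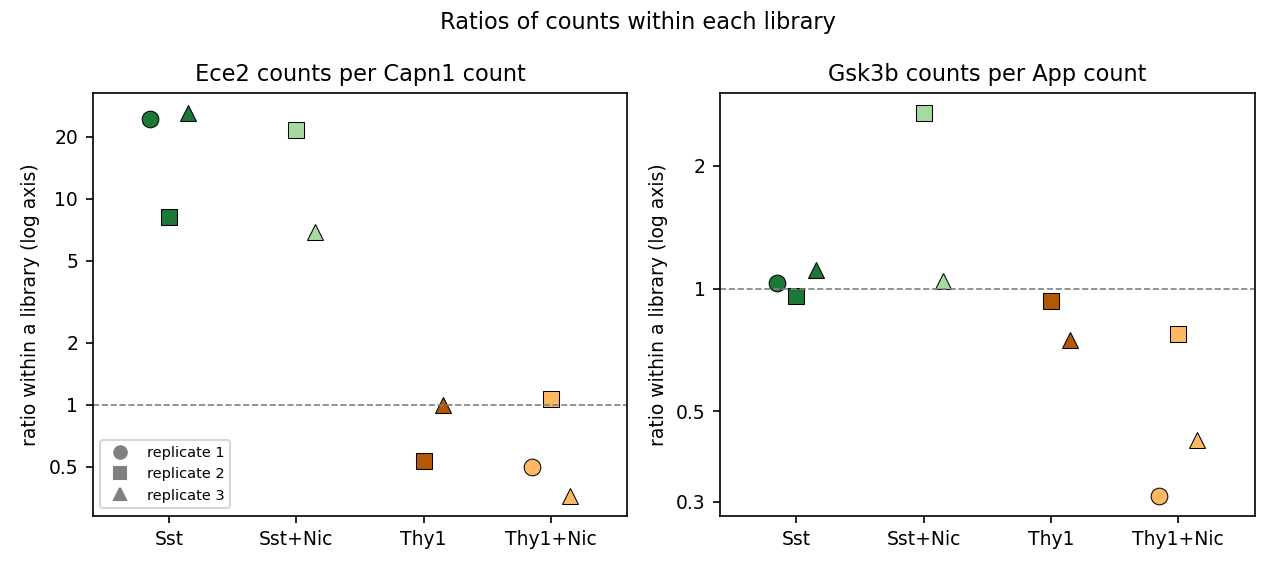
Counts of Ece2 per count of Capn1 (left) and of Gsk3b per count of App (right) within each library, by group, on log axes, with symbols for the replicate and a dashed line at a ratio of 1. The Ece2 to Capn1 ratio is 6.89 or higher for Sst-neurons and 1.07 or lower for Thy1-neurons, and the Gsk3b to App ratio runs from 0.309 in Thy1+Nic replicate 1 to 2.70 in Sst+Nic replicate 2.

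The nicotine comparisons ask whether 14 days of nicotine changed a gene within 1 neuron type. None of the 4 genes was called in either, and edgeR called 0 of 6689 entries (0%) for Sst-neurons and 0 of 6048 (0%) for Thy1-neurons, with 4.19% and 4.37% under 0.05 before adjustment. DESeq2 called 18 and 14 entries, none of them among the 4 genes. Gsk3b had the smallest unadjusted p-value of the 4 genes in both. In Thy1-neurons its log2 fold change with nicotine was -0.95 (SE 0.355, unadjusted p = 0.0290, adjusted p = 1.000), a 1.93-fold lower level, with all Thy1+Nic libraries below both Thy1 libraries. In TMM CPM, 9.61% of entries had Thy1+Nic libraries all below the Thy1 libraries. In Sst-neurons its log2 fold change was 0.57 (SE 0.284, unadjusted p = 0.0855, adjusted p = 1.000), and without Sst+Nic replicate 2 it was 0.04. Sst+Nic replicate 2, which also had the smallest total, therefore carries the higher mean of that group.

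The other members had small nicotine differences relative to their errors. App had log2 fold changes of -0.18 (SE 0.225) for Sst-neurons and -0.20 (SE 0.230) for Thy1-neurons. Ece2 had -0.46 (SE 0.505) and 0.25 (SE 0.856), and Capn1 had -0.26 (SE 1.50) and 0.40 (SE 0.671).

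Whether nicotine acted differently in the 2 neuron types was tested as an interaction over the 10 libraries. For Gsk3b the log2 interaction was 1.48 (SE 0.474, unadjusted p = 0.00860, edgeR adjusted p = 0.673), which ranked 68 of 8242 entries by p-value. None of the 8242 entries was called (0%), with 7.33% under 0.05 before adjustment. DESeq2 called 25 entries, and Gsk3b was not among them (adjusted p = 0.226). The value was 0.99 without Sst+Nic replicate 2 and 1.94 without Thy1+Nic replicate 2, and over 11 alternatives it lay between 1.28 and 1.88 (adjusted p 0.0508 to 1.000). The interaction was -0.01 for App (SE 0.313) and -0.66 for Capn1 (SE 1.42), with edgeR adjusted p of 1.000 for both.

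In the cell type contrast, Gsk3b differed by treatment in the sign of its fitted value. In saline-treated mice its log2 fold change for Sst over Thy1 was -0.18 (SE 0.173, edgeR adjusted p = 0.724). In nicotine-treated mice it was 1.31 for Sst+Nic over Thy1+Nic (SE 0.424, edgeR adjusted p = 0.224), a 2.48-fold higher level with no overlap between the groups, where 18.1% of entries had Sst+Nic libraries all higher in TMM CPM. It passed in 3 of 12 alternatives of this comparison, with adjusted p = 0.0399 by DESeq2, 0.00599 with no filter on low counts and 0.0444 where an entry needed 10 counts in 1 library. Without Sst+Nic replicate 2 the log2 fold change was 0.80 (edgeR adjusted p = 0.689). Over both treatments it was 0.56 (SE 0.311, edgeR adjusted p = 0.358), with 0.22 without Sst+Nic replicate 2 and 0.35 without Thy1+Nic replicate 1.

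**Figure D3:**
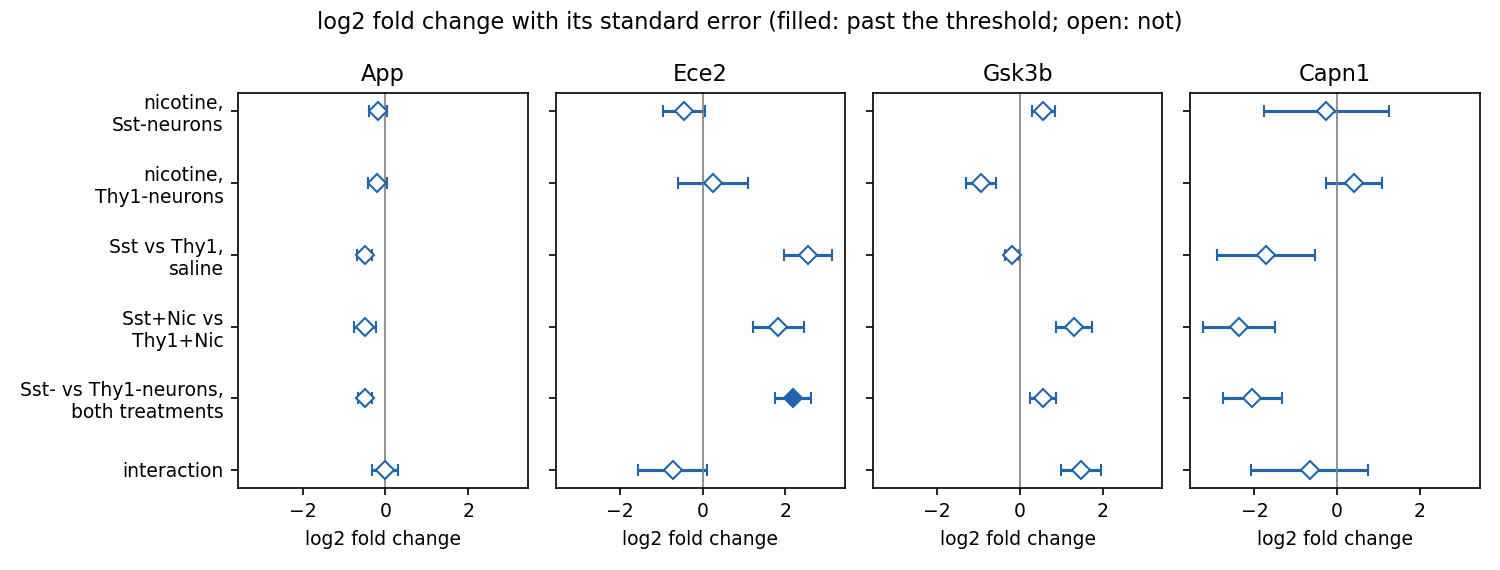
log2 fold change (x axis) of App, Ece2, Gsk3b and Capn1 in the 6 comparisons (y axis), with bars for 1 standard error. Filled symbols passed the test and open symbols did not. The only filled symbol is that of Ece2 over both treatments, at 2.19, and the fitted value of Capn1 for the same comparison is -2.05.

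The 4 genes did not share 1 pattern. As a measure of likeness, the root mean square difference of log2(TMM CPM + 1) between 2 genes was taken over the 10 libraries after each gene was centred on its mean. It was 0.80 between App and Gsk3b, 1.00 between Ece2 and Gsk3b, 1.04 between App and Capn1 and 1.40 between App and Ece2. The largest values were 1.67 between Gsk3b and Capn1 and 2.19 between Ece2 and Capn1. Each gene's own root mean square deviation from its mean was 0.29 for App, 0.60 for Gsk3b, 1.16 for Ece2 and 1.22 for Capn1, so that App varied least among the libraries.

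The position-checked entries closest to Ece2 were the predicted genes Gm3375 and Gm2676 and Dgkg, a diacylglycerol kinase, at differences of 0.38, 0.47 and 0.47, where the median over 427 entries with a mean of at least 10 CPM was 1.41. Their mean levels were 575, 133 and 1284 CPM in Sst-neurons and 83.8, 18.6 and 257 CPM in Thy1-neurons. Closest to Capn1 were Cst6, a cysteine protease inhibitor, Rpl35a, a ribosomal protein gene, and Dlg1, a scaffold of synaptic membranes, at 0.57, 0.64 and 0.64 (median 1.33). Cst6 had a mean of 34.5 CPM in the Sst-neuron libraries and 65.4 CPM in the Thy1-neuron libraries. Dlg1 had a mean of 86.9 CPM (Sst-neurons) and 389 CPM (Thy1-neurons), and Rpl35a had 210 and 839 CPM. Closest to Gsk3b were Rrn3, an initiation factor of RNA polymerase I, Pcnp and Klhl24 at 0.33, 0.35 and 0.36 (median 0.97). Closest to App were Atp6v1a, a subunit of the vacuolar proton pump, Ppp1r2, an inhibitor of protein phosphatase 1, and Ube2v2 at 0.23, 0.23 and 0.24 (median 0.72), values not far under App's own deviation of 0.29, so that near-flat entries lie close to App by this measure. The likeness rests on the same libraries for all genes and is given without a test.

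**Figure D4:**
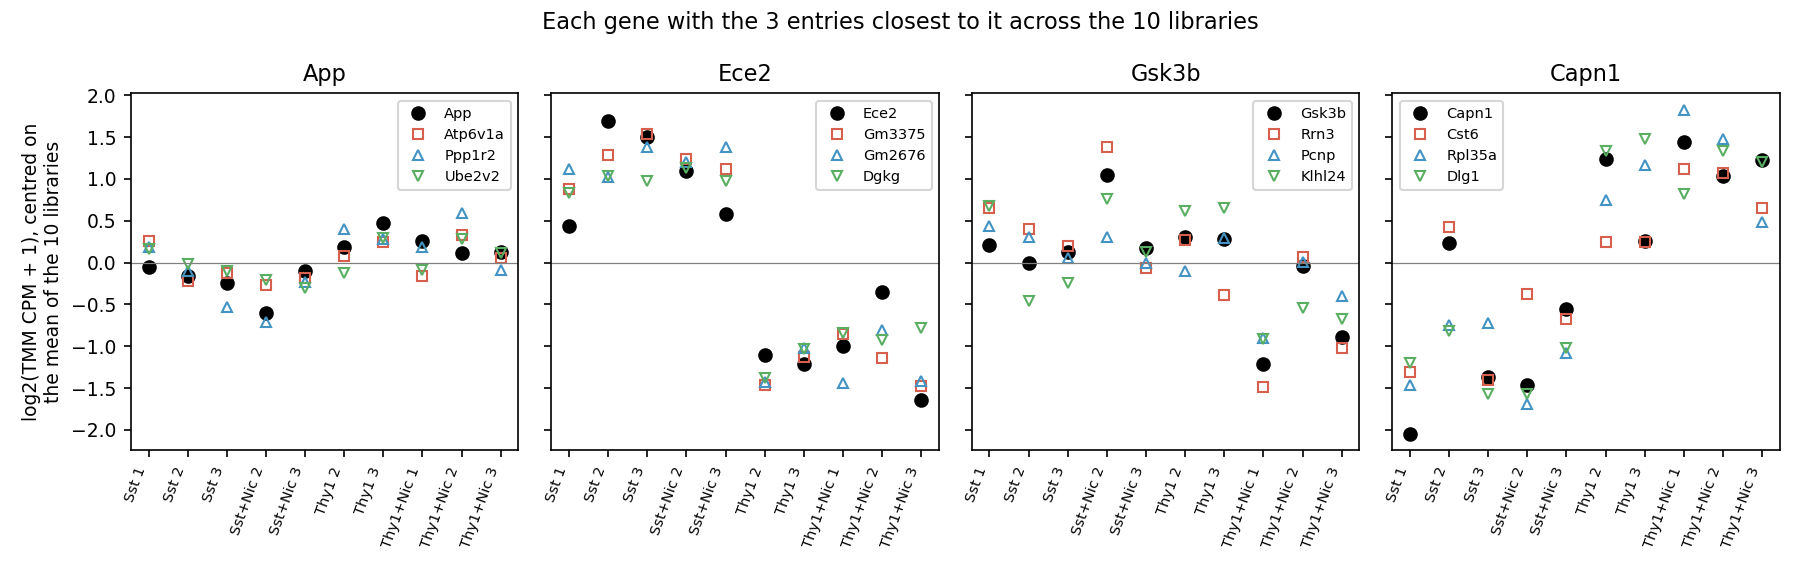
log2(TMM CPM + 1) of App, Ece2, Gsk3b and Capn1 (black) and of the 3 entries closest to each (open symbols), centred on the mean of the 10 libraries (y axis), for each library (x axis, group and replicate). Ece2 and its 3 entries stand above 0 in the 5 Sst-neuron libraries and below it in the 5 Thy1-neuron libraries, and Gsk3b and its 3 entries are lowest in Thy1+Nic replicate 1.

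The wider Alzheimer pathway was listed as 177 genes in 9 groups, from amyloid precursor adaptors and secretases to the respiratory chain. Of these, 23 lay in position-checked entries, 10 of them nuclear, among which 6 were other than the 4 genes. None of the 11 secretase genes and none of the 19 apoptosis and stress genes were among them, and their entries are not reported. Grin2a, which encodes a subunit of the NMDA receptor and was the only position-checked gene of 30 calcium signalling genes, ranged from 16.9 to 67.2 CPM in Sst-neurons and from 15.9 to 38.7 CPM in Thy1-neurons. It was not called in any of the 6 comparisons, and its log2 fold change over both treatments was 0.46 (SE 0.488, edgeR adjusted p = 0.713). The respiratory chain list had 79 nuclear genes, of which 4 could be tested and 0 were called. The complex I subunit genes Ndufs8 and Ndufb4 had log2 fold changes of -0.91 (SE 0.237, edgeR adjusted p = 0.0447) and -0.86 (SE 0.242, edgeR adjusted p = 0.0629) over both treatments, short of the fold-change threshold or of the adjusted p-value. Ndufv1 had -0.13 (SE 0.214), and Atp5j ranged from 0 to 20.5 CPM over the libraries. In saline-treated mice the log2 fold changes of Ndufs8, Ndufb4 and Ndufv1 were -0.48, -0.53 and 0.16. In nicotine-treated mice they were -1.33, -1.18 and -0.41 (edgeR adjusted p 0.127, 0.213 and 0.646). The 13 mitochondrially encoded subunit genes had a median log2 fold change of -1.11 for Sst- over Thy1-neurons over both treatments, where the median of all entries was 0.08, and 11 of 13 were called lower and 0 higher, beside 2.67% of all entries called lower. Within treatments all 13 had fitted values below 0, with a median log2 fold change of -0.97 in saline-treated mice and -1.41 in nicotine-treated mice. Of them, 3 of 13 were called lower in saline-treated mice and 0 of 13 in nicotine-treated mice. Of all entries, 1.72% and 0.507% were called in either direction in these comparisons. None was called for nicotine, with median log2 fold changes of -0.45 for Sst-neurons and 0.12 for Thy1-neurons. The mitochondrially encoded counts enter the library totals, so that the CPM of the 4 genes moves with them. Without these genes and Sst in the total, Ece2 was at 105 ± 35.6 CPM (Sst-neurons) and 19.6 ± 6.32 (Thy1-neurons), and Capn1 at 8.13 ± 5.91 and 30.9 ± 8.51.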

How the data were processed

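RNA of hand-collected cortical neurons was amplified with an oligo-dT kit that does not mark strand, and sequenced as paired-end reads. The authors aligned the reads with TopHat to the mouse genome. The submitters' processing notes name TopHat, HTSeq and GRCm38, with no versions. The authors deposited raw counts per gene entry, without normalization, and these counts were used as deposited in 10 of 12 samples.

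Entries were position-checked from the start of a chromosome up to the first gene outside 0.3 to 3 times the study's group value for Sst or Thy1+Nic. Genes with a value of 50 or more were compared, and a stretch was used where 2 or more genes came within 1%. Other entries on a stretch were accepted by position alone. The fits use all entries, and the 4 genes were kept through the filter.

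Differences were tested with edgeR 4.0.16 (quasi-likelihood, R 4.3.3), TMM normalization and filterByExpr (minimum count 10), where each pair of groups used 5 libraries and the fits over both treatments and of the interaction used 10. Standard errors come from the same fit. Alternatives were DESeq2 1.42.0, limma 3.58.1 voom, other scalings, filters and entry sets, the replicate number as a block, and each library left out in turn. A fit on position-checked entries alone was chosen after seeing the data. The fits were run on simulated data whose spread between libraries was set lower than that fitted here (edgeR common dispersion 0.826 to 1.33). That run therefore does not show how the tests behave at the spread of these data. The genes, lists and tests were chosen with earlier results of these data known. Genes named are the 4 genes in every comparison, pathway genes in position-checked entries (1 of them is not reported here), the 3 entries closest to each gene, and marker genes in position-checked entries. Promoter sequences are from RefSeq (GRCm38.p6), and all 4 genes matched. P-values measure the spread between libraries, each taken to be of 1 mouse. Levels and likeness were computed with Python 3.11.15, numpy 2.4.6 and pandas 2.3.3.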

Additional observations from a re-analysis of the deposited data

How the results depend on the processing

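The call of Ece2 between neuron types over both treatments was kept in every alternative run, and no call was lost in any. Calls were gained as follows. In saline-treated mice the count of called members went from 0 to 1, Ece2, with log2 fold changes of 2.51 by DESeq2, 2.54 with no filter on low counts and 2.52 where an entry needed 10 counts in 1 library. In nicotine-treated mice it went from 0 to 1, Gsk3b, with 1.30 in each of these 3 fits. Over both treatments it went from 1 to 2 by DESeq2, with Capn1 at -2.05. DESeq2 also called more entries in all (563, 508 and 861, against 109, 33 and 381), and the cause was not tested. For nicotine in Sst-neurons, totals as library sizes turned the sign of App (0.0110) and Capn1 (0.0246), and limma voom that of Capn1 (0.23). The interaction of App, near 0, turned to 0.0802 by DESeq2, 0.0801 with RLE size factors, 0.30 with totals, 0.00516 where entries needed 10 counts in 1 library, 0.12 with entries limited to stretches set by change point (App lies past the end of its stretch, at 58.7 Mb of chromosome 16, and was kept), 0.10 on position-checked entries and 0.0607 with the replicate block. Leaving out 1 library gave ranges across 0 for nicotine in Sst-neurons in App (-0.48 to 0.0228) and Capn1 (-0.93 to 0.94), for nicotine in Thy1-neurons in Ece2 (-0.13 to 0.52), and for the interaction in App (-0.25 to 0.23) and Capn1 (-1.32 to 0.54), none of them past the test.

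Levels in CPM moved by more than 1 SD with other totals. In TMM CPM App was at 2055 in Sst+Nic, 3279 in Thy1 and 2909 in Thy1+Nic. Without mitochondrially encoded genes and Sst in the total, App was at 3567 in Sst, 3289 in Sst+Nic, 4655 in Thy1 and 3845 in Thy1+Nic. On this total Ece2 was at 114 in Sst, 18.4 in Thy1 and 20.4 in Thy1+Nic, Gsk3b at 3692 in Sst, 3882 in Thy1 and 1904 in Thy1+Nic, and Capn1 at 33.5 in Thy1+Nic.

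Replicate numbers are shared between groups, but the labels tie them to nothing else. Over 13 same-numbered pairs the correlation of deviations from the group means ran from -0.0854 to 0.0325, and 0 pairs were over 0.1. The replicate block changed no call of the 4 genes, and Ece2 over both treatments had a log2 fold change of 2.18 with it (adjusted p = 0.0196). It took the count of all entries called from 109 to 59 in saline-treated and from 33 to 9 in nicotine-treated mice. Depth limits Capn1 in Sst-neurons (8 to 45 counts per library) and Ece2 and Capn1 in Thy1-neurons (29 to 78 and 40 to 88).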
